A study of Mus musculus with 54 samples.

Results

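The cells described here are single mouse lung cells in which Fosb and Nr4a1 were either both present or both nearly absent. They were chosen by the measured levels of these 2 genes: on cells had each at 10 TPM or more, and off cells had both under 10 TPM. TPM, the unit the authors deposited, gives the abundance of a gene's transcripts relative to all transcripts of the same cell. Of the 54 cells of the series, 14 were on and 14 were off, so 28 were compared; 12 cells had Fosb alone at that level and 14 had Nr4a1 alone. The labels call every cell an interstitial macrophage, a macrophage that lies in lung tissue outside the air spaces. Each cell was read as its own SMART-seq2 library, a method that copies whole transcripts. The labels name no animal, strain, age, sort gate, treatment or batch, so all cells count as 1 sample of 1 group, cells are not replicates, and the values below are descriptions without tests.

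Fosb encodes a partner in AP-1, the dimer of Fos and Jun family proteins that binds DNA and switches on target genes. Nr4a1 encodes Nur77, an orphan nuclear receptor that needs no known ligand and is best known in the myeloid lineage for its part in the making of patrolling monocytes. Both are immediate-early genes: their transcription starts within minutes of a signal without new protein synthesis, their mRNAs are short-lived, and genes induced alongside them encode proteins that end the response, such as phosphatases and factors that destroy mRNA. Growth factors, microbial products, calcium, cAMP and the handling of tissue during cell isolation are all known to induce them.

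The DNA just before the start site of a gene can hold some of the sites that such signals act on. Shown here are the 250 bases upstream of the start of both defining genes, of Atf3, the early-response gene with the largest difference between on and off cells, and of Fos, the founding AP-1 member, from RefSeq (GRCm38.p6), where all 4 were found. Each is written 5′ to 3′ on the gene's own strand. Capitals mark TGACG or its reverse complement CGTCA, the core of the cAMP response element bound by CREB and ATF proteins.
Fosb: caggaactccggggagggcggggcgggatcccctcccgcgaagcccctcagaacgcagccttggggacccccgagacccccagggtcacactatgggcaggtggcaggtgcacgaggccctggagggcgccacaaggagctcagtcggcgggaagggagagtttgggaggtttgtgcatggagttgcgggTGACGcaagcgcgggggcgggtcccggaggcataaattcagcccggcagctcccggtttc
Nr4a1: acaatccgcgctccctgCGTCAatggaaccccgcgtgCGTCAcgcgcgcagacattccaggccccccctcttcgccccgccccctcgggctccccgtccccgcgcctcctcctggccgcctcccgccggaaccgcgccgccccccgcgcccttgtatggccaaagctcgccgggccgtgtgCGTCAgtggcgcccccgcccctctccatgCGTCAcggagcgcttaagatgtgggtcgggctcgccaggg
Atf3: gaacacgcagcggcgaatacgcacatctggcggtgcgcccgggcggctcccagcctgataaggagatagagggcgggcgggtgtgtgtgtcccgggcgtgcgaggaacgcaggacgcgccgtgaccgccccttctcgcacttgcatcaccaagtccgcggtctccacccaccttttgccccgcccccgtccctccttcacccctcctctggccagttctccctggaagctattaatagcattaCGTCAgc
Fos: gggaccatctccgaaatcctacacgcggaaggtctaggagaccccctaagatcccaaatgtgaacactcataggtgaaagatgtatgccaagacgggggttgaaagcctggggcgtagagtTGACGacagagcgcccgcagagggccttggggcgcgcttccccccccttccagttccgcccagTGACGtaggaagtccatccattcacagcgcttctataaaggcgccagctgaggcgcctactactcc
The windows are chr7:19310046-19310295 (minus strand) for Fosb, chr15:101266596-101266845 (plus) for Nr4a1, chr1:191183334-191183583 (minus) for Atf3 and chr12:85473640-85473889 (plus) for Fos. The core occurred 4 times before Nr4a1, 2 times before Fos and 1 time each before Fosb and Atf3, and 17.8% of 32851 promoter windows of this length held it at least once. Of 11 early-response genes searched, these 4 included, 7 had the core in a window and 4 (Ier3, Zfp36, Klf6 and Socs3) did not. Among the other motifs searched on both strands, the full palindrome TGACGTCA (1.55% of windows), the AP-1 site TGANTCA (6.75%), the NBRE to which Nur77 binds (AAAGGTCA, 1.34%) and the CArG box of serum response factor (1.47%) were not in these 4 windows. The TATA box letters TATAAA (12.4% of windows) were found before Fos, at -33, and not before the other 3 genes. A match describes the letters and shows no binding. Only the 250 bases were searched, so a motif missing from a window may lie farther upstream.

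Both genes behaved as on or off with almost nothing between. The lowest Fosb value at 10 TPM or more was 19.7 TPM (cell 29, counting the cells from 1 to 54 in the order of the series) and the highest under it was 1.53 TPM (cell 22). For Nr4a1 the same values were 16.6 TPM (cell 20) and 1.98 TPM (cell 46). In the on cells Fosb ran from 50.01 TPM over a median of 173 to 801, and Nr4a1 from 21.02 over 284 to 2737. In the off cells neither gene passed 0.95 TPM, and 9 of the 14 had no Fosb at all. Moving the threshold to 1 TPM would add 4 on cells and leave the number of off cells at 14.

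**Figure D1:**
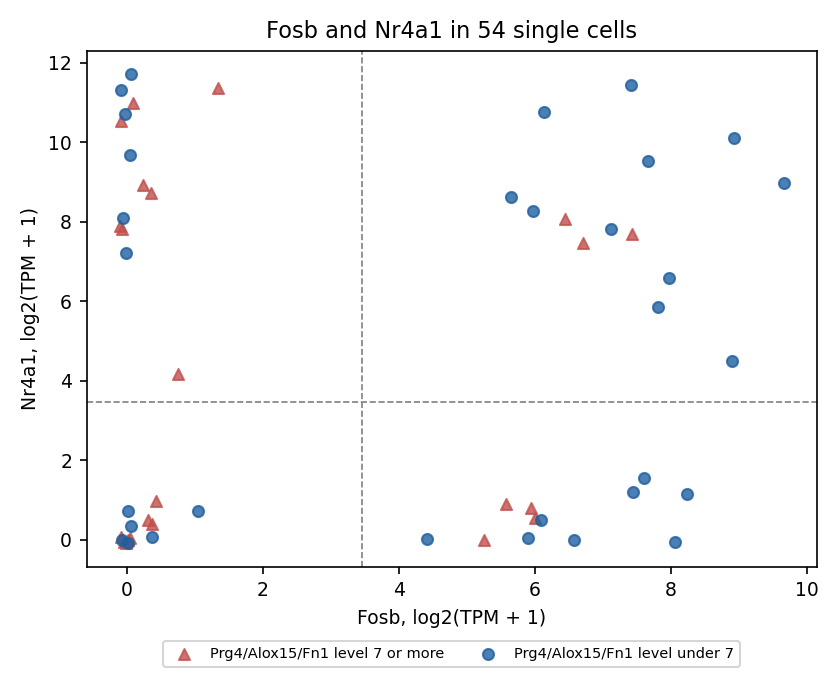
Nr4a1 against Fosb in log2(TPM + 1), 1 point per cell, with dashed lines at 10 TPM and a small random shift of each point. The 4 quadrants hold 14 cells with neither gene, 12 with Fosb alone, 14 with Nr4a1 alone and 14 with both.

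The 2 genes were on together about as often as the product of their separate shares. Fosb was at 10 TPM or more in 26 of 54 cells (48.1%; 34.3 to 62.2%, exact Clopper-Pearson 95% interval) and Nr4a1 in 28 (51.9%; 37.8 to 65.7%). Both were at that level in 14 cells, and the product gives 13.5. Nr4a1 was on in 53.8% of the cells with Fosb and in 50% of those without. All intervals on shares cover counting error only, since the sequencing depth behind a TPM value is unknown. On cells made up 25.9% (14.96 to 39.7%) of the series.

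The cells also fall into 2 classes by Prg4, Alox15 and Fn1, genes typical of the macrophages of serous cavities, whose mean log2(TPM + 1) is here called the serous level. It was 7 or more in 23 cells and under 7 in 31, with 7.31 (cell 31) the lowest value above the boundary and 5.34 (cell 29) the highest under it. On cells were 3 serous-high and 11 serous-low cells; off cells were 8 serous-high and 6 serous-low. Fosb was on in 7 of 23 serous-high cells (30.4%) and 19 of 31 serous-low cells (61.3%), Nr4a1 in 11 (47.8%) and 17 (54.8%). A comparison over all cells therefore sets mostly serous-low cells against off cells that are 8 of 14 serous-high, so most results are also given inside each class. The serous-high comparison rests on 3 on cells (cells 5, 21 and 45).

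The on and off cells had similar medians in the quality measures the files allow. Genes at 10 TPM or more ran from 522 over 1620 to 2049 in on cells and from 560 over 1507.5 to 3267 in off cells. Off cell 31 had 1325 genes above 0, and 1324 at 10 TPM or more. Genes above 0 ran from 1347 over 2650.5 to 3302 in on cells and from 1227 over 2634 to 4124 in off cells. The median mitochondrial share was 3.42% (0.35 to 7.43%) in on and 3.53% (0.31 to 6.38%) in off cells. Macrophage genes were present in both: C1qb, a chain of complement C1q, was at 10 TPM or more in 14 on and 13 off cells, and Csf1r, the receptor of the macrophage growth factor CSF1, in 13 and 12. The macrophage identity level, the mean log2(TPM + 1) of 14 genes, had a median of 7.93 in on and 7.88 in off cells, with cell 40 (off) lowest at 3.45. At least 1 of 10 alveolar macrophage markers was at 10 TPM or more in 4 on cells (at most 2 markers) and 8 off cells (at most 6); their part in the differences was not tested. At least 1 monocyte marker was at 10 TPM or more in 7 on and 5 off cells, in serous-low cells in 6 on and 0 off. A neutrophil marker was at it in 1 on and 2 off cells, and a dendritic cell marker in 0 on cells and 1 off cell. The part of these cells in the differences was not tested either. No T or NK cell, B cell, mast cell, epithelial, endothelial, fibroblast or erythroid marker reached 10 TPM in any on or off cell.

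Early-response genes other than the defining pair had higher means in on cells more often than lower ones: 39 against 12 in serous-low cells and 30 against 19 in serous-high cells, with the rest equal. Over all 3786 genes compared, which all passed a filter on low values, 1958 were higher against 1779 lower in serous-low cells. In serous-high cells these counts over all genes were 1708 against 1992. The 57 genes come from 4 lists: AP-1 and ATF partners, NR4A family and RXR partners, other early transcription regulators, and feedback brakes. Differences are on minus off in mean log2(TPM + 1), a scale that understates the change of low genes, and a gene is counted as higher or lower where the size is at least 3, which is 8-fold on that scale. Only genes that passed the filter on low values could be counted, which were 39 of the 57. Over all cells 6 of these 39 were higher and 0 lower, where 1.16% of all 3786 genes compared were higher and 1.56% lower. The median difference of all 57 was 0.94, and that of the 39 that passed the filter on low values was 1.58, against -0.23 over all genes, which passed it too. In serous-low cells 12 were higher and 0 lower (background 3.38% and 3.94%) with medians of 1.44 for the 57 and 2.31 for the 39, against 0.07. In serous-high cells 8 were higher and 1 lower (background 8.06% and 7.0%) with medians of 0.20 and 0.53 against -0.14. With both classes weighted equally the all-cell median of the 57 was 0.98. Without the 3 cells 31, 36 and 40, of which 31 and 40 are off cells with at least 3 alveolar markers, the medians of the 57 were 0.96, 0.28 and 1.03 over all, serous-high and serous-low cells. The filter asked for 10 TPM or more in at least 20% of the on or of the off cells. A gene present in a single group passes it through that group, so the medians of the 39 are given as descriptions only.

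**Figure D2:**
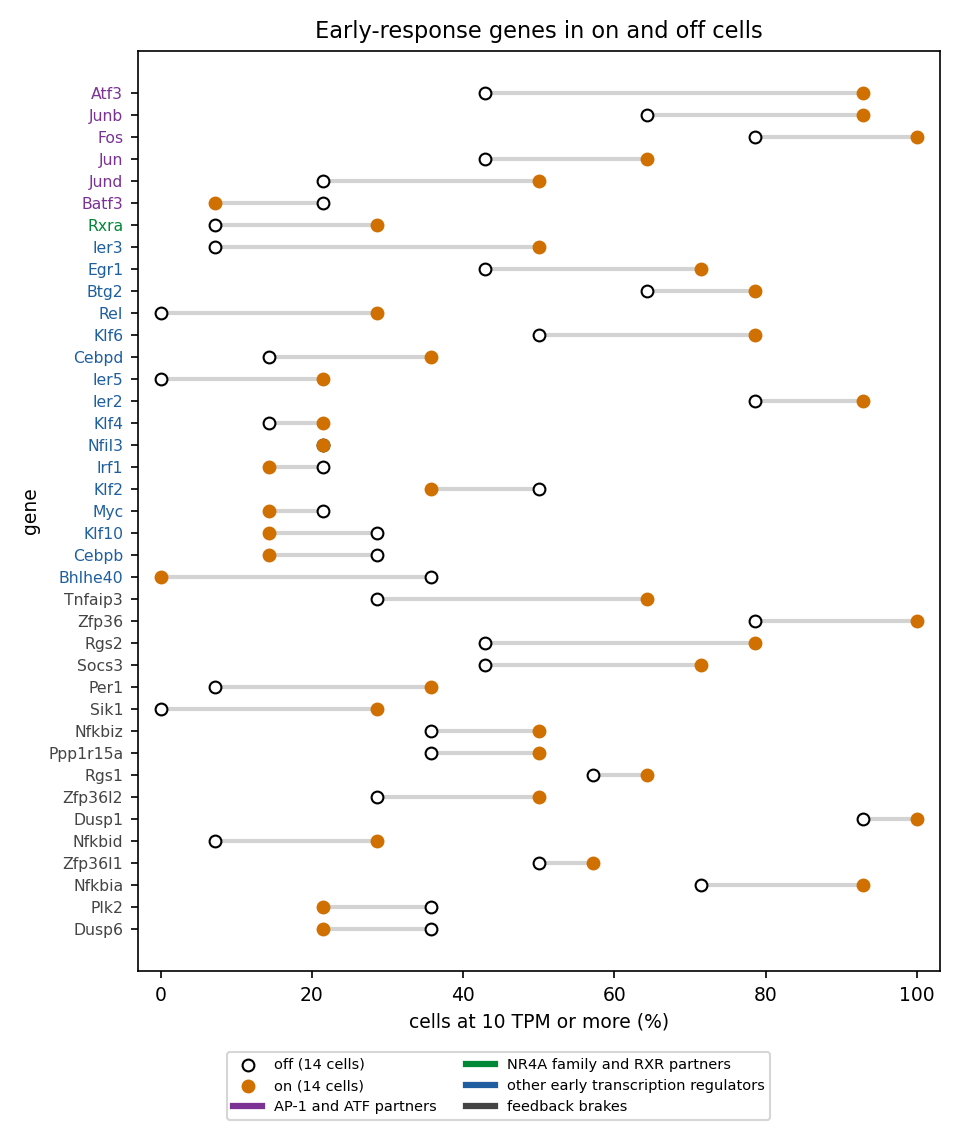
Share of the 14 on cells (filled) and 14 off cells (open) with each of the 39 filtered early-response genes at 10 TPM or more, by list. Atf3 and Ier3 are farthest to the right of their off values, while Bhlhe40 and several others lie to the left.

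Among the 10 AP-1 and ATF partners 6 passed the filter on low values, and 3 of these were higher over all cells (background 1.16%). Atf3, a stress-induced member of the ATF family that represses inflammatory genes, ran from 0 over 1043 to 2899 TPM in on cells and from 0 over 0.755 to 935 TPM in off cells. It was at 10 TPM or more in 13 of 14 on cells (92.9%; 66.1 to 99.8%) and 6 of 14 off cells (42.9%; 17.7 to 71.1%), so the groups overlap and the 2 intervals meet between 66.1 and 71.1%. Its difference was 5.49 over all cells, 5.97 in serous-high and 4.52 in serous-low cells, the largest of the list in each. In the 3 serous-high on cells Atf3 was at 70.1, 549 and 2613 TPM, while 3 of the 8 serous-high off cells reached 10 TPM.

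Fos itself was at 1030 TPM or more in every on cell and had a median of 3870 TPM. In off cells it ran from 0.77 over 1458 to 7535 TPM, with 11 of 14 at 10 TPM or more. The difference was 3.17 over all cells, 1.88 in serous-high and 3.96 in serous-low cells. Junb, a Jun family partner of Fos proteins, had medians of 1572 TPM in on and 396 TPM in off cells and differences of 3.25, 3.05 and 3.71. Jun was at 10 TPM or more in 9 on and 6 off cells, and its difference was 2.13 over all cells, 0.01 in serous-high and 2.07 in serous-low cells. Of the 14 off cells, 11 still had Fos and 9 still had Junb at 10 TPM or more. Jund, the more constant Jun family member, was at that level in 7 on and 3 off cells, and Batf3 in 1 and 3, while Fosl1 and Maff reached it in none.

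The relatives of Nr4a1 were near absent. Nr4a2 was at 10 TPM or more in 1 on cell and 0 off cells and Nr4a3 in 0 of both, and the exact 95% interval for 0 of 14 cells reaches 23.2%. Rxra, a nuclear receptor that pairs with Nur77, was at that level in 4 on cells and 1 off cell and differed by 1.63, 1.59 and 1.96 over all, serous-high and serous-low cells. Of the 4 members of the NR4A and RXR list Rxra alone passed the filter on low values, so it alone could be counted. It was not past 3 over all cells or in either class.

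Of the 20 other early transcription regulators 16 passed the filter on low values, and 1 of these was higher over all cells (background 1.16%). Ier3, an early gene that protects cells from death signals, was at 10 TPM or more in 7 on and 1 off cell, with differences of 3.73, 4.37 and 4.06 over all, serous-high and serous-low cells. Egr1, a zinc finger factor of the classic serum response, had medians of 179 TPM in on and 1.16 TPM in off cells and differences of 2.92, 3.94 and 4.29. In the 3 serous-high on cells Egr1 was at 105, 812 and 1041 TPM, inside or above the off range of 0 to 654. Ier2 and Btg2, an antiproliferative early gene, differed by 4.17 and 4.32 in serous-low cells but by -0.14 and 0.48 in serous-high cells. Rel, the c-Rel subunit of NF-κB, reached 10 TPM in 4 on cells, all serous-low, and in no off cell. Bhlhe40, a repressor needed for the proliferation of some tissue macrophages, went the other way: 0 on and 5 off cells were at 10 TPM or more, and the difference was -2.65 over all and -3.91 in serous-high cells. Klf6, a zinc finger factor, was at 10 TPM or more in 11 on and 7 off cells with nearly equal differences of 2.63, 2.84 and 2.71. Cebpd, a C/EBP factor of the acute-phase response, differed by 4.66 in serous-high and 1.32 in serous-low cells, while its relative Cebpb differed by 0.20 and -2.43. Myc, Irf1 and Klf10 were each at 10 TPM or more in 2 on cells, beside 3, 3 and 4 off cells.

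Of 23 feedback brakes 16 passed the filter on low values. These gave 2 higher genes over all cells (background 1.16%), 3 in serous-high cells (8.06%) and 4 in serous-low cells (3.38%). Zfp36, which encodes tristetraprolin and destroys cytokine mRNAs, was between 976 and 7111 TPM in on cells (median 2156) and between 0.63 and 3636 TPM in off cells (median 623). Every on cell was at 976 TPM or more, and 3 off cells were under 10 TPM. Its difference was 3.14 over all cells, 3.08 in serous-high and 2.83 in serous-low cells. Tnfaip3, the A20 ubiquitin editor that ends NF-κB signalling, was at 10 TPM or more in 9 on and 4 off cells and differed by 3.20, 1.02 and 3.55. Rgs2, a brake on G protein signalling, differed by 3.93 in serous-low and 0.26 in serous-high cells. Socs3, an inhibitor of cytokine receptor signalling, differed by 2.60, 3.68 and 2.85. Ppp1r15a, which restarts translation after stress, and Per1, a clock gene, differed by 3.68 and 3.05 in serous-low cells and by -1.36 and -0.49 in serous-high cells. Zfp36l1, a relative of Zfp36, showed the reverse with -0.95 and 3.75. Sik1, a kinase that restrains CREB coactivators, was at 10 TPM or more in 4 on cells and no off cell, and Nfkbia, the NF-κB inhibitor, in 13 on and 10 off cells. Dusp1, a MAP kinase phosphatase, was high in nearly every cell, at 10 TPM or more in 14 on and 13 off cells, with medians of 8143 and 5429 TPM.

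The mean level of the 57 genes in each cell shows where the difference lay. On cells ran from 2.66 over 3.36 to 4.04 and off cells from 0.64 over 2.26 to 4.31. Of the off cells, 8 (4 in each class) lay at 2.28 or less, under every one of the other 40 cells, whose lowest was 2.64. The remaining 6 off cells ran from 2.98 to 4.31, inside the range of the rest. The low off cells had between 1227 and 3550 genes above 0 (median 2634, against 2721 in the other off cells). Cell 42 had 3321 genes but an early level of only 0.86. Cell 12, at 0.76, had 1227 genes, and cell 40, at 0.64, had 1499 genes and 6 alveolar markers. The part of the number of genes in these levels was not tested.

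Cells with a single defining gene were closer to on than to off cells in their early level, but not in every gene. The level had a median of 3.28 with Fosb alone and 3.80 with Nr4a1 alone, beside 3.36 in on and 2.26 in off cells. Atf3 lay between on and off cells: it was at 10 TPM or more in 7 of 12 cells with Fosb alone and 10 of 14 with Nr4a1 alone, Junb in 12 and 13, and Ier3 in 6 and 6. In serous-high cells the median early level with Nr4a1 alone was 4.10, above the 3.24 of the 3 on cells. It was 3.45 there with Fosb alone and 2.63 in off cells. In serous-low cells the order differed. There the median was 3.45 in on cells, 3.28 with Fosb alone, 3.09 with Nr4a1 alone and 2.16 in off cells.

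**Figure D3:**
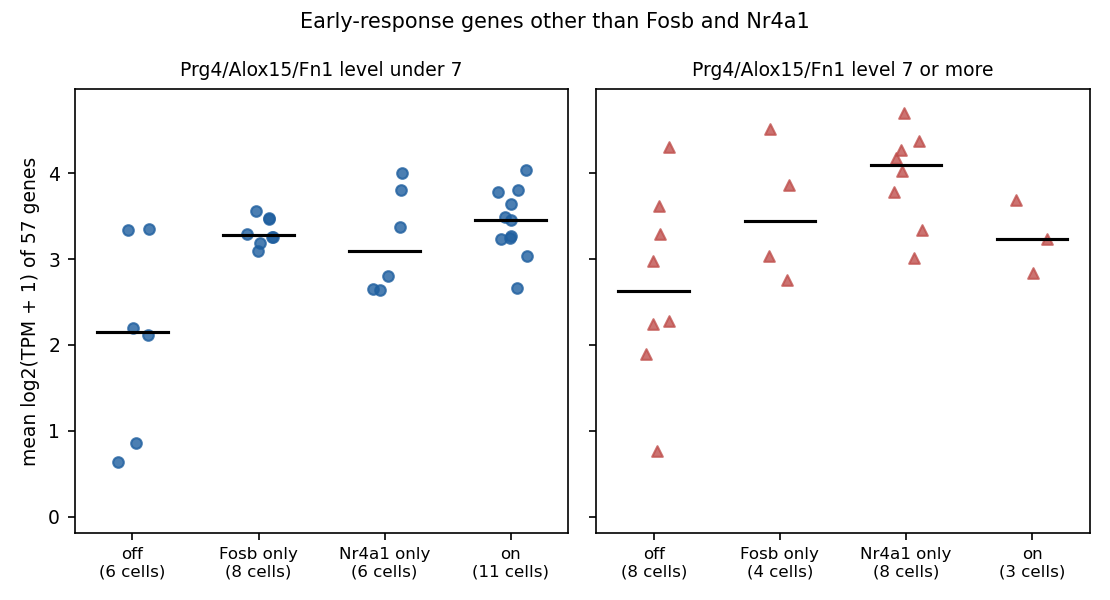
Mean log2(TPM + 1) of the 57 early-response genes in each cell, by which defining gene was on and by serous class; bars are medians. Only the off columns reach below 2.6. The on median lies above both single-gene medians in serous-low cells and under both in serous-high cells, where there are 3 on cells.

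Across all 3786 genes the 2 classes, which share no cells, had few differences in common. There were 12 genes higher by at least 3 in both (0.317%), which is 3.93% of the 305 higher in serous-high and 9.38% of the 128 higher in serous-low cells. There were 9 lower in both (0.238%), which is 3.40% of 265 and 6.04% of 149. Against these 21 genes, 22 went past 3 in opposite directions (0.581%), so agreement between the classes was no more common than disagreement. Of the 12, 4 were early-response genes (Atf3, Ier3, Egr1 and Junb); no early-response gene was lower in both or opposite.

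Outside the early-response lists, the genes higher in both classes included Pxn, Clk1, Idh3g, Mrpl4, Ap3b1 and Ndufa7. Pxn, which encodes the focal adhesion adaptor paxillin, was at 10 TPM or more in 7 on cells and no off cell, and differed by 3.43 in serous-high and 4.11 in serous-low cells. Clk1, a kinase that acts on splicing factors, was at that level in 11 on and 7 off cells and differed by 3.40 and 4.42. Idh3g and Ndufa7 encode parts of the mitochondrial isocitrate dehydrogenase and of respiratory complex I, and Mrpl4 a mitochondrial ribosomal protein; they were at 10 TPM or more in 7, 8 and 8 on cells and in 2, 4 and 2 off cells. Ap3b1, a subunit of the AP-3 sorting complex, was at it in 6 on cells and 1 off cell.

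The largest differences over all cells also held genes that did not repeat in both classes. Gm29562, a predicted gene, differed by 4.30, 2.21 and 5.16 over all, serous-high and serous-low cells. Anxa5, which binds exposed phosphatidylserine, differed by 4.15, -1.01 and 3.55, and Il10ra, a chain of the IL-10 receptor, by 3.93, 1.95 and 3.41. Aif1, which encodes the calcium-binding protein IBA1, was at 10 TPM or more in 8 on and 2 off cells but differed by 0.00 in serous-high cells. Kdm6b, the histone H3K27 demethylase JMJD3 induced by inflammatory signals, was at 10 TPM or more in 11 on cells and 1 off cell, with 3 of 12 and 9 of 14 of the single-gene cells, and differed by 3.77 over all, 2.01 in serous-high and 3.83 in serous-low cells.

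Genes lower in on cells in both classes included Hbp1, Mdh1, Bub3, Myl12a and Eef1g. Hbp1, a transcription repressor that slows the cell cycle, was at 10 TPM or more in 1 on and 8 off cells and differed by -4.41 in serous-high and -5.50 in serous-low cells. Bub3, a spindle checkpoint protein, did not reach 10 TPM in any on cell but did in 7 off cells. Mdh1, the cytosolic malate dehydrogenase, was at that level in 2 on and 9 off cells. Pilra, an inhibitory receptor of myeloid cells, was at it in 2 on and 10 off cells, but its difference was past 3 in serous-high cells alone (-6.42, against -2.96 in serous-low cells). Tnfaip8, Txndc17, Rab8a and Ifngr2 were at 10 TPM or more in 2, 2, 1 and 4 on cells and in 8, 8, 8 and 9 off cells. Ifngr2 encodes a chain of the interferon gamma receptor and Rab8a a small GTPase of vesicle transport. Of 8 proliferation genes, at least 1 was at 10 TPM or more in 3 on cells (at most 1 gene) and 7 off cells (at most 8). Off cells 37 and 42 had 8 and 4 of them at that level. All 8 had lower means in on cells over all cells, with list medians of -0.95, -1.48 and -0.13 over all, serous-high and serous-low cells. The part of these cells in the differences was not tested.

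Other genes among the lowest over all cells were past 3 in at most 1 of the classes. Ltc4s, the leukotriene C4 synthase, was at 10 TPM or more in 3 on and 10 off cells, with differences of 1.49 in serous-high and -4.004 in serous-low cells. Slpi, a secreted protease inhibitor, and Tmed3, a protein of the early secretory route, differed by -4.28 and -5.51 in serous-high but by -0.54 and -0.46 in serous-low cells. Prdx6, a peroxiredoxin, and Rtn3, a reticulon, differed by -4.11 and -4.24 in serous-high and by -1.87 and -1.99 in serous-low cells. Smpdl3a, a phosphodiesterase, and Fcna, the lectin ficolin A, were at 10 TPM or more in 2 and 3 on cells and in 8 off cells each, with -4.58 and -4.45 over all cells, -1.53 and -2.27 in serous-high and -2.68 and -2.25 in serous-low cells.

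**Figure D4:**
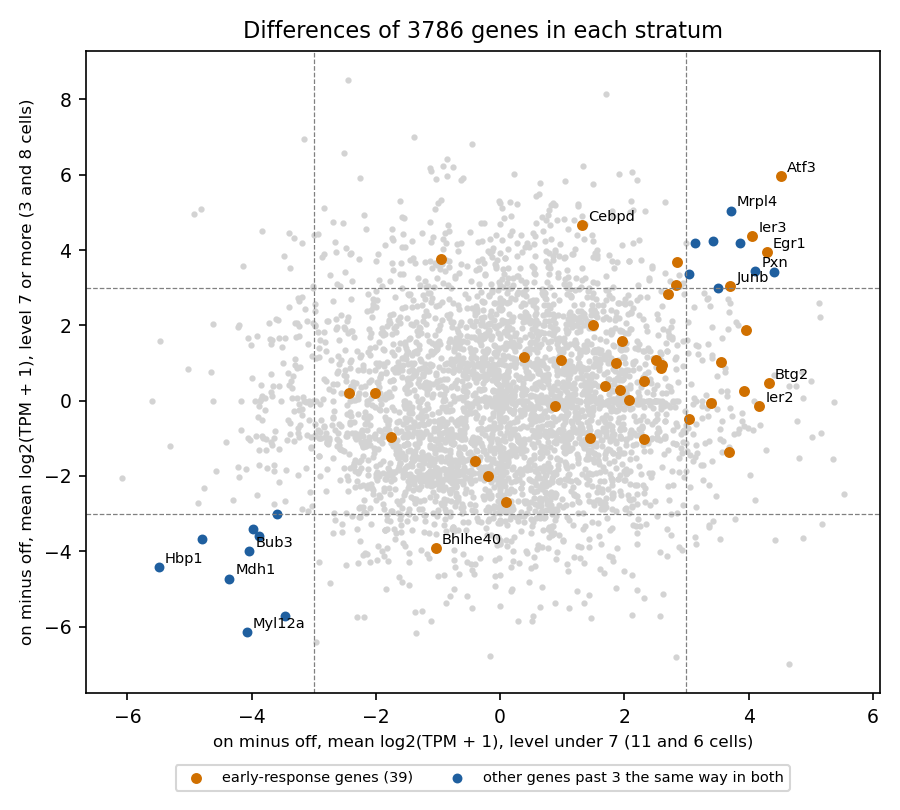
On-minus-off difference of each of 3786 genes in serous-high cells (vertical) against serous-low cells (horizontal), with dashed lines at 3 and -3. Atf3, Ier3, Egr1 and Junb lie in the upper right corner with 8 other genes, and as many genes lie in the mixed corners as in the agreeing ones to within 1 gene.

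Of 24 genes that macrophages secrete or display after activation, 11 passed the filter on low values and could be counted. Of these 11, 1 was higher over all cells (background 1.16%) and 4 in serous-low cells (3.38%). None was in serous-high cells (8.06%), where only 3 on cells were compared. The list medians were 0.00, 0.02 and 0.00, and the difference between the classes was not tested. Il1b, the inflammatory cytokine, was above 0 in no off cell and at 10 TPM or more in 3 on cells, all serous-low. Ccl2 and Ccl7, chemokines that attract monocytes, were at 10 TPM or more in 4 and 3 on cells and 1 off cell each. Cd83, a surface protein of activated antigen-presenting cells, was at that level in 10 on and 4 off cells, all serous-low, with a difference of 3.12 inside that class. Cxcl2, a neutrophil attractant, was at that level in 8 on and 9 off cells, and Tnf and Il10 in none of either.

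MHC class II genes, which present antigen to T helper cells, were higher in on cells over all cells but not inside the serous-high class. Of the 8 genes 6 passed the filter on low values, and all 6 were higher over all cells (background 1.16%). The median difference of the 8 was 3.69. The median of Cd74, whose product escorts class II molecules, was 19863 TPM in on cells and 5.32 TPM in off cells. H2-Eb1, H2-Ab1 and H2-Aa, chains of the class II molecules themselves, differed by 4.53, 3.95 and 3.89 over all cells, by 0.12, -1.42 and -0.21 in serous-high cells and by 3.65, 2.63 and 1.60 in serous-low cells. In serous-high cells none was past 3 and the median was -0.10. In serous-low cells 2 were higher (background 3.38%) and the median was 2.11. The class II level per cell had medians of 9.19 in serous-low on cells and 6.56 in serous-low off cells, with ranges of 0.81 to 10.94 and 1.21 to 11.11 that overlap almost wholly. In serous-high cells its medians were 1.86 in on and 1.09 in off cells, with ranges of 1.45 to 1.91 and 0 to 6.49. The highest of these off cells was cell 31, which had a serous level of 7.31 and 6 alveolar markers. The part of cell 31 in the serous-high differences was not tested. Icam2, an adhesion protein on the list of serous cavity genes, was lower by 4.73 over all cells but by 0.63 in serous-high and 2.18 in serous-low cells.

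**Figure D5:**
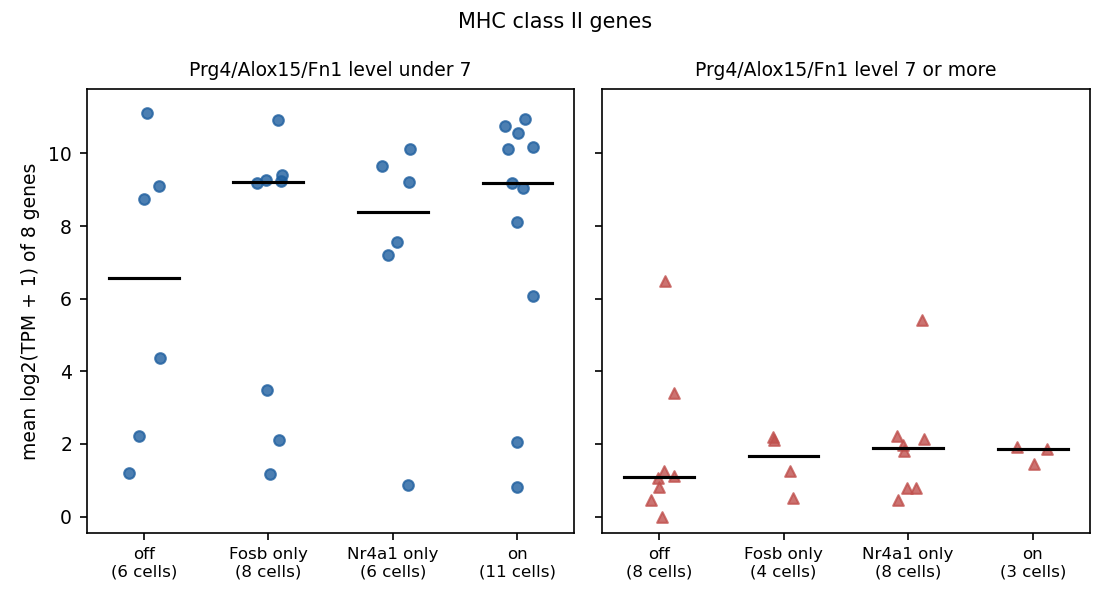
Mean log2(TPM + 1) of 8 MHC class II genes per cell, by which defining gene was on and by serous class; bars are medians. Serous-low cells split into low and high cells in every column, and serous-high cells are mostly under 3.

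Most members of the other lists were not past 3. Of 13 serous cavity genes 11 passed the filter on low values, and 5 of these were lower over all cells (background 1.56%), including the 3 that define the classes. The list medians were -2.05 over all, 0.83 in serous-high and -0.05 in serous-low cells. These medians include the 3 defining genes, and 0.83 is the difference of Prg4 itself, so they are not independent of the rule. Of 10 Lyve1 programme genes, typical of macrophages along vessels, 9 passed the filter and 2 of these were higher over all cells (background 1.16%). They were F13a1, at 10 TPM or more in 6 on cells and 1 off cell, and Cbr2, in 5 and 1. F13a1 and Cbr2 differed by -0.21 and -0.14 in serous-high and by 3.49 and 3.25 in serous-low cells. Heat shock and chaperone genes had a median difference of -0.25 over all, -0.37 in serous-high and 0.33 in serous-low cells. Among the 8 of 13 that passed the filter, Hsp90aa1 alone was lower over all cells (background 1.56%). It was at 10 TPM or more in 3 on and 9 off cells, with -5.62 in serous-high and -1.37 in serous-low cells. Hspa8 was at 10 TPM or more in all 28. Of the 12 upstream regulators (SRF, MEF2 and CREB with their kinases) only 4 passed the filter and could be counted, and 0 of these were past 3. The medians of the 12 were -0.26, -0.17 and -0.23 over all, serous-high and serous-low cells. Of 13 glycolysis genes 11 passed the filter, and 2 of these were lower over all cells (background 1.56%). Among them was Gapdh, with medians of 359 TPM in on and 1271 TPM in off cells and differences of -3.76, -2.80 and -3.03. The medians of the 13 were -0.34 over all, -1.71 in serous-high and 0.008 in serous-low cells. Of 11 lysosome genes 1 was lower and 0 higher over all cells (background 1.56% and 1.16%). In serous-low cells 4 were lower and 1 higher (3.94% and 3.38%), and in serous-high cells none was past 3. The list medians were -0.37, 0.11 and -0.37 over all, serous-high and serous-low cells. Ctsd, the lysosomal protease cathepsin D, was lower by 3.74 over all cells and by 3.68 in serous-low cells, and differed by 0.11 in serous-high cells. Ccr2, the receptor that brings monocytes into tissue, was at 10 TPM or more in 6 on cells, all serous-low, and 1 off cell, which was serous-high. Its difference was 3.59 over all, -0.87 in serous-high and 5.17 in serous-low cells. Of the 7 monocyte markers, Ccr2 included, only 2 passed the filter on low values. Over all cells 3 of the 6 besides Ccr2 had lower means in on cells and 3 had equal means, and the list median was 0. In serous-low cells Ccr2 alone had a higher mean in on cells, 1 marker had a lower mean and the rest were equal. Hp, the haptoglobin gene, was at 10 TPM or more in 1 on and 4 off cells.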

How the data were processed

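Each of the 54 cells came with a table of TPM for 43280 gene symbols, which the authors made with RSEM, per the submitters' processing notes; version, aligner, build and annotation are not given in the sources used here. Totals lay between 997509 and 1e+06 TPM, a unit without depth, so precision beyond the counting intervals is unknown. No cell was left out, no 2 cells were identical (highest correlation 0.605), and no doublet caller could be run without molecule counts. Levels are log2(TPM + 1). Genes at 10 TPM or more in at least 20% of the on or of the off cells were compared, 3791 in all, and the 5 genes of the rule (Fosb, Nr4a1, Prg4, Alox15, Fn1) were left out, leaving 3786. A difference counts from a size of 3 up. With 1 sample no test was made; shares carry exact Clopper-Pearson 95% intervals from scipy 1.17.1. Named genes were the 12 highest and 12 lowest over all cells, the 10 highest and lowest by the smaller difference of the classes where both had the same sign, and the early-response or secreted genes past 3; members of other lists are examples. The members and all 26 gene lists were chosen with earlier results of these data known. Of 256 list members all were found, 1 under an older symbol. Promoter sequences came from RefSeq GRCm38.p6 and served only as reference. The difference over all cells was checked on measured values shuffled across cells, with a shift added in the on cells for randomly picked genes. The class comparisons, list counts, filter and promoter search were not checked in this way. Python 3.11.15, numpy 2.4.6 and pandas 2.3.3 were used.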

Additional observations from a re-analysis of the deposited data

How the results depend on the processing

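No paired analysis was possible because the cells form 1 group with no replicate numbers that tie cells together. Of 54 genes named by rule, 38 were past 3 over all cells, and none of these changed direction under 15 other settings and 1 added after seeing the data. Of the settings, 3 (both stratum boundaries and no filter on low values) cannot alter these values; under the other 13, 356 of 494 values stayed within 1.5 times and 138 moved. The counts over all cells (44 higher, 59 lower) were 142 and 226 with a pseudocount of 0.1, 6 and 5 with 10, 156 and 260 by differences of medians, 11 and 8 when Fosb alone set the groups, and 1 and 3 when Nr4a1 alone did. The count of lower genes was 98 at a threshold of 100 TPM, 108 without cells 31, 36 and 40, and 105 without the 8 cells under 2000 genes (the added alternative). The median of the early-response genes over all cells (0.94) was 0.57 with a pseudocount of 10, 0.28 at 100 TPM, 0.36 by Fosb alone and 0 by medians. In serous-high cells (0.20) it was 0.34 with 0.1, 0.0087 with 10, 0.46 by Nr4a1 alone, 0.11 after removing the trend on genes above 0, and 0 at 100 TPM, by Fosb alone, with values under 10 TPM set to 0, by medians and without the 8 cells. In serous-low cells (1.44) it was 0.78 with 10, 0.45 at 100 TPM, 0.70 by Fosb alone, 0.27 by Nr4a1 alone, 0.72 with a boundary of 9, 0.96 with values under 10 TPM set to 0, and 0 by medians. The causes were not tested. The sequencing depth of each cell is unknown, so an absent transcript cannot be told from an undetected one.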
